A study of Equus caballus with 12 samples.

Results

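ENSECAG00000035318 is an equine gene that was read at one of 2 far-apart levels, depending on the horse, in every tissue examined. It is 1 of 31217 Ensembl genes in the deposited count tables. The gene was chosen by its measured counts in the 12 libraries, which divide the horses into 2 and 4 (high) and 1 and 3 (low), so the levels of the horses are given as a description and were not tested. Which tissue expressed it most was not part of that choice, and the tissues were compared by test. RNA-seq libraries were made from 3 tissues, namely heart (left ventricle), liver (right lobe) and lung (right caudal lobe), of 4 healthy cold-blooded stallions aged 1 to 2 years, collected at a slaughterhouse. All the animals were untreated, and no genotype, strain or age is given for a single horse. Each horse gave 1 library per tissue, 12 in all, and replicate numbers 1 to 4 are the numbers of the horses in the labels.

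The tables give Ensembl identifiers without gene names, so what the gene encodes, its position and its sequence are not described here, and genes are called by their identifiers. ENSECAG00000027689, the most abundant gene of each heart library, served as a reference for abundance. The heart is a muscle that contracts without pause and runs on oxidative metabolism, the liver is a gland of intermediary metabolism and the lung is the organ of gas exchange, and a few genes can make up a large part of the messenger RNA of a specialised organ. A level that is shared by the heart, lung and liver of an animal sets that animal apart from others, whereas a level shared by the same organ of different animals sets the organs apart. Both kinds of difference were present in this gene.

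Reads counted in genes ranged from 4345694 to 23474239 per library, and no pair of libraries held identical values. Levels are given as CPM, that is, counts rescaled to a library size of 1000000, after correction by TMM factors (trimmed mean of M-values), a scaling that keeps a few very abundant genes from setting the level of all others. Tissue markers could not be checked by name. Of the genes found in the liver and nearly missing from the lung, the 30 most abundant had a median level in heart replicate 2 that was 2.96% of that in the liver, compared with 0.0487%, 0.230% and 0.0975% in heart replicates 1, 3 and 4. Horse 2 was one of the horses with a high level of ENSECAG00000035318. At the same share of its own liver level, the gene would reach 104 CPM in its heart. That is 0.330% of the 31587 CPM read there. The part of liver RNA in this heart level was not tested.

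In the heart, ENSECAG00000035318 was read at 754 CPM in horse 1, 31587 CPM in horse 2, 919.9 CPM in horse 3 and 41589 CPM in horse 4. The underlying counts were 11345, 272379, 3293 and 548615 in the same order. Horses 2 and 4 were far above horses 1 and 3, and the gene held place 6 and place 8 among all genes ordered by count in these libraries, compared with places 98 and 89 in horses 1 and 3. In the heart of horse 4 it took 2.43% of all gene counts (95% exact binomial interval 2.42% to 2.43%). In that of horse 1 it took 0.0483% (interval 0.0474% to 0.0492%). Counts were not corrected for PCR duplicates, and all intervals of this kind cover counting error only.

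The lung held the least of it. Its level there was 9.85 CPM in horse 1, 433 CPM in horse 2, 7.42 CPM in horse 3 and 444 CPM in horse 4. The same animals as in the heart were high, and close to each other, and horses 1 and 3 were low. The low levels rested on 185 and 355 counts and put the gene at places 7804 and 8841, among genes of ordinary abundance, while the 12964 and 18728 counts of horses 2 and 4 put it at places 106 and 91.

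The liver lay between the other tissues. The level was 39.1 CPM in horse 1, 3524 CPM in horse 2, 27.5 CPM in horse 3 and 3270.2 CPM in horse 4, from 391, 48163, 291 and 11963 counts. The horses fell into the same pairs as in the heart and the lung, and no value of one pair overlapped the other in any tissue. The liver library of horse 4 was the least deeply sequenced of the 12, and its level nevertheless lay next to that of horse 2.

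**Figure D1:**
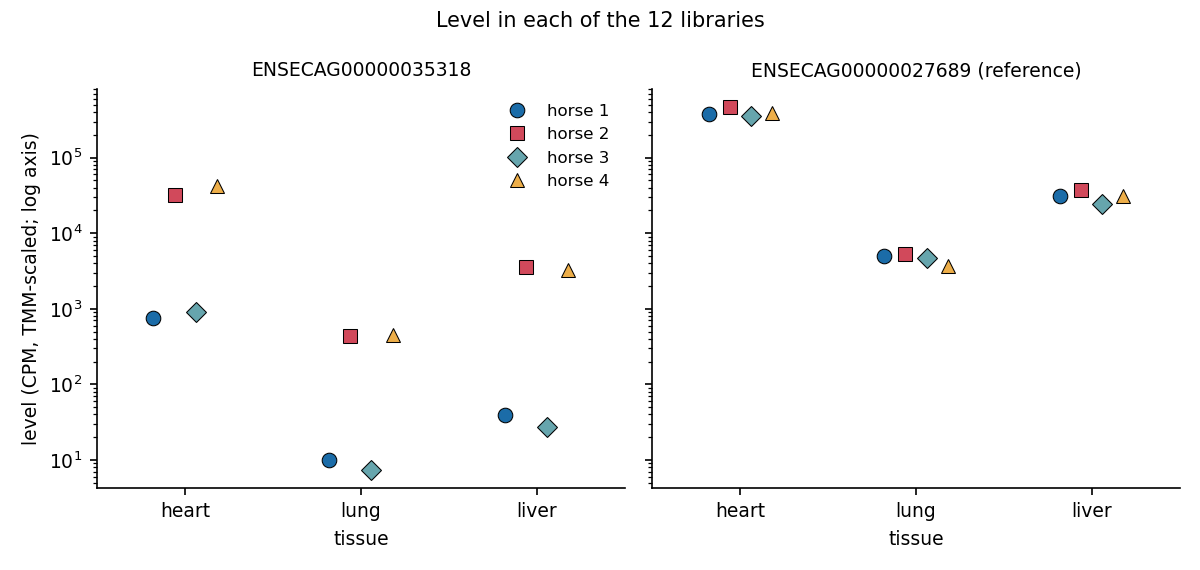
Level of ENSECAG00000035318 (left) and of the reference gene ENSECAG00000027689 (right) in each of the 12 libraries, in TMM-scaled CPM on a log axis, by tissue; each point is 1 library and symbols are horses. Horses 2 and 4 lie far above horses 1 and 3 for the first gene, at 433 and 444 CPM against 9.85 and 7.42 CPM in the lung, but not for the reference.

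The distance between the horses was of a similar order in heart and lung and larger in liver. In the heart, the high animals exceeded the low ones by 34.3-fold to 55.1-fold, over the 4 possible pairs. In the lung the range was 43.98-fold to 59.8-fold, and in the liver it was 83.6-fold to 128-fold. Between the horses that lay close together the ratio was 1.22 and 1.32 in the heart, 1.33 and 1.03 in the lung, and 1.42 and 1.08 in the liver, each given as the higher over the lower horse. The order within these close pairs was not the same in each tissue: horse 3 exceeded horse 1 in the heart but not in the lung or liver, and horse 4 exceeded horse 2 in the heart and lung but not in the liver.

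Because the gene was chosen for this pattern, its distance is set beside that of all genes without a test. The smallest distance between the lower of horses 2 and 4 and the higher of horses 1 and 3 was 5.10 on the log2 scale in the heart, 5.44 in the lung and 6.38 in the liver. Among the 15436 genes with enough counts for testing, 76 genes (0.492%) had horses 2 and 4 above horses 1 and 3 in all 3 tissues, and 71 genes (0.46%) had them below. These shares lay close together, and neither count is read as a result about the horses. A distance of at least 1 log2 unit in every tissue was found for 2 of the 76 and for 0 of the 71. The other gene of these 2 was ENSECAG00000028173, with a smallest distance of 1.64.

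**Figure D2:**
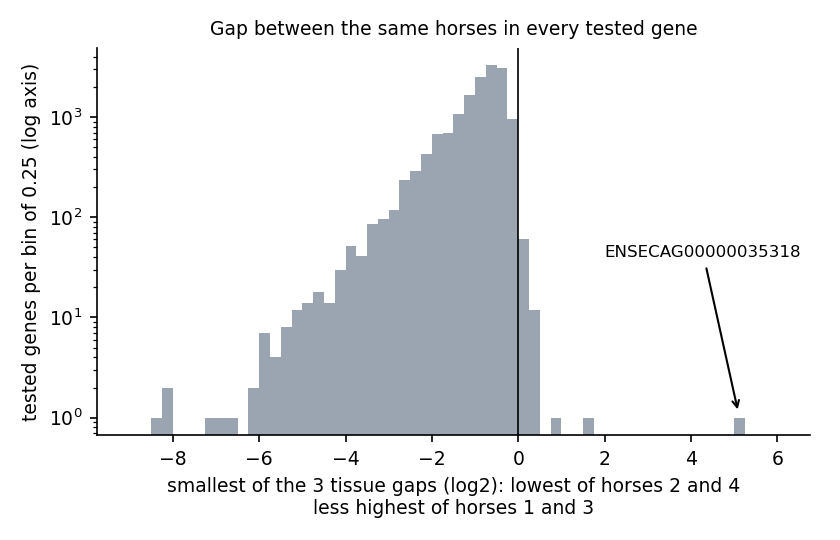
Distribution of the distance between the same horses over the 15436 tested genes: the horizontal axis gives the smallest of the 3 tissue values of the lower of horses 2 and 4 less the higher of horses 1 and 3 (log2 CPM), and the vertical axis (logarithmic) counts genes per bin. Values above 0 mean that horses 2 and 4 lie above horses 1 and 3 in every tissue, and ENSECAG00000035318, at 5.10, stands apart from the next gene at 1.64.

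As a measure of variation between animals, the SD of log2 CPM over the 4 horses was 3.15 in the heart, 3.27 in the lung and 3.87 in the liver. The median SD of the 11083 genes that averaged 1 CPM or more in each tissue was 0.34, 0.22 and 0.30. In CPM, the SD over horses exceeded the mean of each tissue: 18712.5 ± 21041 in the heart, 224 ± 248 in the lung and 1715 ± 1945 in the liver (mean ± SD, n = 4 each). These means describe no single animal, since no horse lay near them.

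Reads that the counting program set aside were compared between the same horses. The share of reads that could not be assigned to 1 gene, and that of reads aligned to several places, overlapped between horses 2 and 4 and horses 1 and 3 in every tissue. Reads outside annotated genes also overlapped in the heart and lung, but in the liver they made up 20.3% and 22.0% of the reads listed in horses 2 and 4, compared with 17.7% and 16.8% in horses 1 and 3. Their part in the liver levels of the gene was not tested.

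The reference gene showed no such division. ENSECAG00000027689 was read at 372493, 465477, 359299 and 387681 CPM in the hearts of horses 1 to 4, where it took between 20.9% and 30.3% of all gene counts. Its level was 4973, 5299.5, 4675 and 3627 CPM in the lung and 31393, 37176, 24428 and 30994 CPM in the liver, in the same order of horses. The highest library exceeded the lowest by 1.30-fold in the heart, 1.46-fold in the lung and 1.52-fold in the liver, and horses 2 and 4 did not stand together on one side of horses 1 and 3 in lung or liver. In the heart both lay above, at a ratio of 1.04 to 1.30.

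The count of ENSECAG00000035318 was then expressed as a percentage of the count of the reference gene in the same library, a measure that does not depend on how libraries are scaled. In horse 1 it was 0.202% in the heart, 0.198% in the lung and 0.1246% in the liver. In horse 3 it was 0.256%, 0.159% and 0.113% in the same order of tissues. In horse 2 it was 6.79%, 8.18% and 9.48%, and in horse 4 it was 10.7%, 12.2% and 10.6%. The percentage thus stayed within one order of magnitude across the tissues of a horse while the level itself changed by over one order of magnitude between heart and lung. The order of the tissues differed between animals: the liver had the lowest percentage in horses 1 and 3 and the highest in horse 2, and in horse 4 the 95% counting intervals of liver (10.4% to 10.8%) and heart (10.7% to 10.8%) overlapped.

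**Figure D3:**
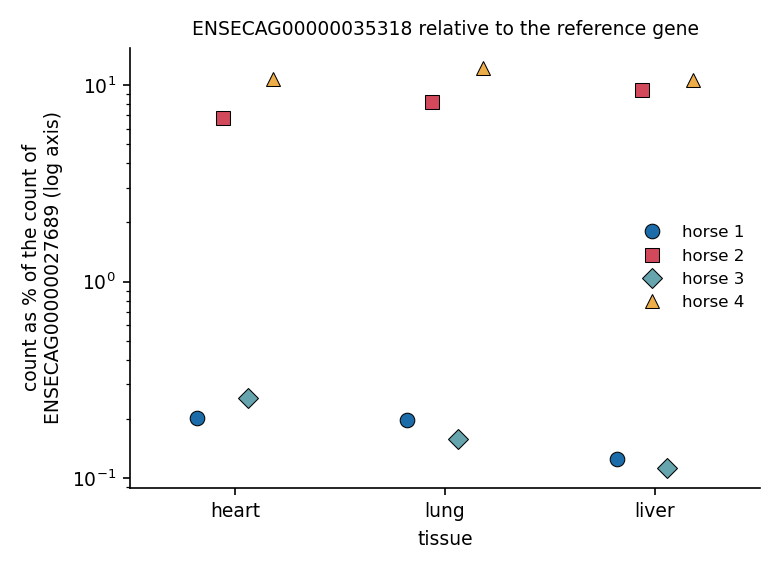
Count of ENSECAG00000035318 as a percentage of the count of ENSECAG00000027689 in the same library, on a log axis, by tissue; each point is 1 library and symbols are horses. Horses 2 and 4 lie between 6.79% and 12.2% in the 3 tissues, and horses 1 and 3 between 0.113% and 0.256%.

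To ask which tissue expressed the gene most, lung and heart (LvsH), lung and liver (LvsLR) and heart and liver (HvsLR) were compared. Expression was highest in the heart, intermediate in the liver and lowest in the lung in each of the 4 horses. Relative to the lung, the heart was 76.5-fold higher in horse 1, 72.9-fold in horse 2, 124-fold in horse 3 and 93.6-fold in horse 4. The heart exceeded the liver by 19.3-fold, 8.96-fold, 33.4-fold and 12.7-fold in horses 1 to 4, and the liver exceeded the lung by 3.97-fold, 8.13-fold, 3.71-fold and 7.36-fold. The sizes depend on the scaling: with library totals in place of TMM, the log2 ratio of lung over heart was -4.46, -4.50, -5.07 and -4.61 in horses 1 to 4 and that of lung over liver -0.35, -1.55, -0.23 and -1.47, with every direction kept. In pieces of whole tissue, a smaller number of expressing cells cannot be told apart from less RNA in each cell.

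The ratios that involve the liver varied most from horse to horse. In horses 2 and 4 the log2 ratio of lung over liver was -3.02 and -2.88, and in horses 1 and 3 it was -1.99 and -1.89. For heart over liver the log2 ratio was 3.16 and 3.67 in horses 2 and 4, against 4.27 and 5.06 in horses 1 and 3. With 1 library per horse and tissue, a difference between animals in these ratios could not be tested. For lung over heart the horses were mixed, with -6.26, -6.19, -6.95 and -6.55 in horses 1 to 4.

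**Figure D4:**
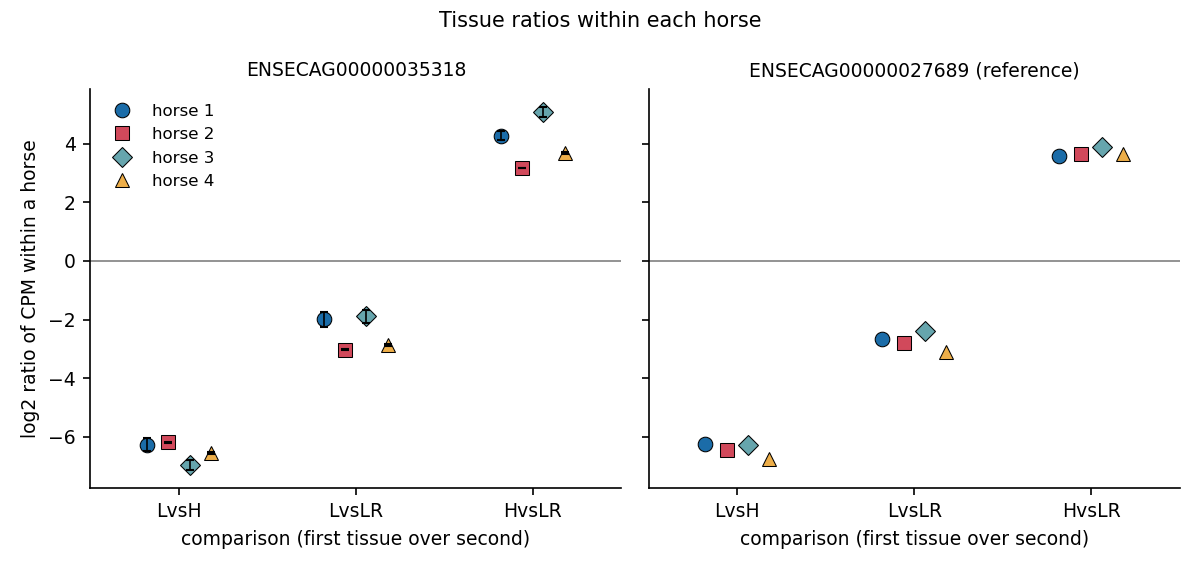
Log2 ratio of CPM between tissues of the same horse for ENSECAG00000035318 (left) and the reference gene (right), for LvsH, LvsLR and HvsLR, each as the first tissue over the second; symbols are horses, and bars on the left are 95% counting intervals, mostly narrower than the symbols. All 4 horses lie on the same side of 0 in each comparison, and heart over liver spreads from 3.16 to 5.06 for the first gene but from 3.57 to 3.88 for the reference.

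In a model of the tissues without a term for the animal (the methods of the study name none), only the difference between lung and heart passed the thresholds of an adjusted p under 0.05 and a change of 1 log2 unit or more. The log2 fold change was -6.39 ± 2.21 (SE) for LvsH, with a p of 0.0252 after Benjamini-Hochberg adjustment over 15436 genes (quasi-likelihood test of edgeR). It was -2.94 ± 1.88 for LvsLR (adjusted p = 0.187) and 3.45 ± 1.92 for HvsLR (adjusted p = 0.139), and neither passed. In the direction of this gene, 20.7% of all tested genes were called in LvsH, 19.4% in LvsLR and 26.4% in HvsLR.

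The labels name the horse of each library, and with the horse as a replicate block all 3 comparisons passed. The log2 fold change was then -6.51 ± 0.40 for LvsH (adjusted p = 1.83e-07), -2.50 ± 0.33 for LvsLR (adjusted p = 5.43e-05) and 4.02 ± 0.36 for HvsLR (adjusted p = 2.41e-06, edgeR's quasi-likelihood test). The standard errors were smaller than those without the block in each comparison. This follows from choosing a gene whose level differs between horses, as do the failed calls without the block. Neither is a separate result. With the block, 20.2%, 19.4% and 26.7% of all tested genes were called in the same directions. Without the block, the call in LvsH was lost when lung replicate 1, 2 or 3 was left out (adjusted p = 0.0551, 0.0513 and 0.0543), and its log2 fold change was -5.63 without heart replicate 4. Without heart replicate 2, whose liver genes are described above, it was -6.01 (adjusted p = 0.0326), and HvsLR was 3.08 (adjusted p = 0.192).

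The tissue ratios of the gene were set beside those of the reference, which was picked for its level in the heart. For ENSECAG00000027689 the heart exceeded the lung by 74.9-fold, 87.8-fold, 76.8-fold and 107-fold in horses 1 to 4, and it exceeded the liver by 11.9-fold, 12.5-fold, 14.7-fold and 12.5-fold. Its liver exceeded its lung by 6.31-fold, 7.01-fold, 5.22-fold and 8.55-fold. The heart over liver ratio of ENSECAG00000035318 was above that of the reference in horses 1 and 3 (19.3-fold and 33.4-fold), below it in horse 2 (8.96-fold) and close to it in horse 4 (12.7-fold). The log2 ratio of the tissues for ENSECAG00000035318 less that for the reference averaged -0.07 ± 0.44 in LvsH, 0.29 ± 0.38 in LvsLR and 0.36 ± 0.73 in HvsLR (SD over 4 horses). None of these differences passed the test (two-sided exact sign-flip test over 4 horses, p = 0.875, 0.25 and 0.375, adjusted over the 3 comparisons p = 0.875, 0.5625 and 0.5625), a test whose smallest possible p with 4 pairs is 2 in 16, so that it could not pass a threshold of 0.05 and does not show that the genes had the same proportions. Over the 4 horses the difference ranged from -0.69 to 0.27 in LvsH, from -0.21 to 0.67 in LvsLR and from -0.48 to 1.18 in HvsLR, with horse 3 over 1 log2 unit away from the reference in the last of them.

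The spread of the proportions over horses was not equally small for both genes. The SD of the log2 ratio of heart over liver was 0.82 for ENSECAG00000035318 and 0.13 for the reference, and that of lung over liver was 0.59 and 0.30. For lung over heart it was 0.35 and 0.23. To set the gene beside the same 11083 genes, the SD was computed from log2 CPM, which holds a prior count of 2. So computed, it was 0.81 for HvsLR, 0.60 for LvsLR and 0.34 for LvsH. It was higher than that of 81.6% of genes for HvsLR, 82.2% for LvsLR and 41.6% for LvsH.

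The genes whose pattern over horses was most like that of ENSECAG00000035318 were sought by correlating how log2 CPM deviated from the mean of each tissue, over the 12 libraries and 11082 other genes. The 12 points are 3 tissues of each of 4 horses and share libraries and scaling, so the coefficients are a description and carry no p. The median coefficient was 0.04. A coefficient of at least 0.9 was reached by 3 genes, and 3 genes were at or below -0.9.

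The closest gene was ENSECAG00000028173 (r = 0.99). It was read at 3485, 15807, 5078 and 17378 CPM in the hearts of horses 1 to 4. Its level was 30.0, 177, 34.6 and 135 CPM in the lung, and 219.5, 1072, 198 and 973 CPM in the liver. The high animals were horses 2 and 4, a pattern that the choice by correlation favours, without overlap in any tissue. However, the highest library exceeded the lowest by only 4.99-fold, 5.90-fold and 5.41-fold in heart, lung and liver. For ENSECAG00000035318 it did so by 55.1-fold, 59.8-fold and 128-fold. As a result the order of abundance between them changed with the animal: the count of ENSECAG00000035318 was 0.139 to 0.328 times that of ENSECAG00000028173 in the libraries of horses 1 and 3, and 2.00 to 3.36 times in those of horses 2 and 4. These are ratios of counts that are not corrected for the length of the genes.

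The second gene by this measure, ENSECAG00000019351 (r = 0.93), was far less abundant. It was read at 0.838 to 1.44 CPM in the heart, from 3 to 19 counts, at 3.91 to 6.14 CPM in the lung and at 1.80 to 2.78 CPM in the liver. The highest library exceeded the lowest by 1.72-fold at most.

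In the opposite direction, ENSECAG00000018628 (r = -0.94) and ENSECAG00000027671 (r = -0.93) had the lowest coefficients. The first of them varied little, from 92.4 to 105 CPM in the heart, from 64.9 to 73.4 CPM in the lung and from 148 to 164 CPM in the liver. ENSECAG00000027671, by contrast, was among the most abundant genes, holding place 2 by count in the hearts of horses 1, 2 and 3 and place 5 in that of horse 4. Its level in the hearts of horses 1 to 4 was 131742, 65717, 158197 and 75035 CPM. It was 1569.7, 1082, 1526 and 884 CPM in the lung and 10844.5, 7301, 11412 and 6532 CPM in the liver. The levels of horses 2 and 4 were lower than those of horses 1 and 3 in all 3 tissues, by 0.81 log2 units at the least in the heart, 0.50 in the lung and 0.57 in the liver.

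**Figure D5:**
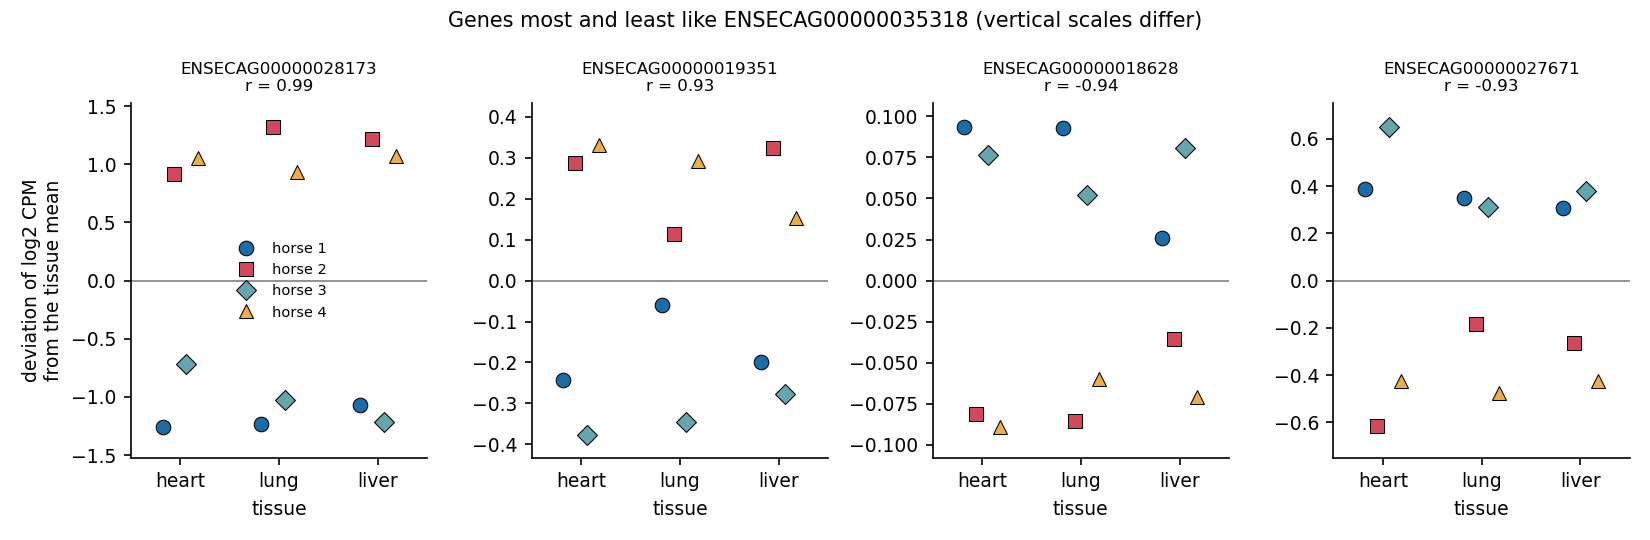
Deviation of log2 CPM from the tissue mean in each library for the genes with the highest coefficients (left pair) and the lowest coefficients (right pair) against ENSECAG00000035318; symbols are horses, and the vertical scales differ between panels. No value of horses 2 and 4 overlaps those of horses 1 and 3 within a tissue in any panel, which the choice by correlation favours. Sizes differ widely: the highest library exceeds the lowest by 4.99-fold for ENSECAG00000028173 and by 1.14-fold for ENSECAG00000018628 in the heart.

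The tissue differences of these genes were not used to choose them. The values given here are from the model without a term for the horse, so their SE takes in differences between horses. With the horse as a replicate block, every direction was kept and the same comparisons passed the thresholds. Expression of ENSECAG00000028173 was higher in the heart than in the lung (log2 fold change LvsH -6.79 ± 0.97 SE, adjusted p = 6.06e-05, edgeR's quasi-likelihood test) and than in the liver (HvsLR 4.08 ± 0.85, adjusted p = 0.00103). Expression of ENSECAG00000027671 was likewise higher in the heart, with a log2 fold change of -6.41 ± 0.50 for LvsH (adjusted p = 2.18e-07) and 3.58 ± 0.44 for HvsLR (adjusted p = 1.05e-05). ENSECAG00000019351 was higher in the lung, with 2.10 ± 0.30 for LvsH (adjusted p = 4.98e-05). For ENSECAG00000018628 the log2 fold change was -0.51 ± 0.12 for LvsH and -0.66 ± 0.12 for HvsLR, both under the threshold of 1 log2 unit, and for ENSECAG00000019351 it was -0.91 ± 0.31 for HvsLR, also under it. In LvsLR all 4 genes passed the thresholds. ENSECAG00000028173 (-2.71 ± 0.80, adjusted p = 0.00971), ENSECAG00000027671 (-2.83 ± 0.43, adjusted p = 6.08e-05) and ENSECAG00000018628 (-1.17 ± 0.12, adjusted p = 2.88e-06) were higher in the liver, and ENSECAG00000019351 (1.18 ± 0.28, adjusted p = 0.00236) was higher in the lung.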

How the data were processed

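The deposited files held raw read counts per gene, 1 file per library, with no normalization. Per the labels, the authors used FastQC for read quality, TopHat2 for alignment to EquCab3.0 and HTSeq for counting over the genes of Ensembl. The library kit (TruSeq RNA version 2) does not mark strand and no strand setting is stated for HTSeq. Reads of a gene thus cannot be told apart from those of an antisense partner or of an overlapping transcript missing from the annotation. Reads with several places or several genes are set aside by HTSeq, and near-identical gene copies then have too few counts. The 5 summary rows of HTSeq stayed out of library sizes and tests.

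The analysis used edgeR 4.0.16 in R 4.3.3, as counts require, with DESeq2 1.42.0, the tool of the study, as an alternative. The default filter of edgeR on low counts, by tissue, left 15436 genes of 31217. The tests were run on TMM-scaled libraries in 1 robust quasi-likelihood fit of the 12 libraries, and a prior count of 2 was used for log2 CPM. The SE of a log2 fold change is its size divided by the square root of the quasi-likelihood F. The fit was tested on simulated data with known changes. Intervals of ratios of counts were exact conditional binomial intervals (95%).

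Replicate numbers pair the libraries, since 1 number is 1 animal in the labels. This was checked by correlating, across genes (which are not independent replicates), how libraries of different tissues deviated in log2 CPM from their tissue means: the 12 pairs of libraries from the same horse had a mean r of 0.157 (0.0867 to 0.372), and the 36 pairs from different horses had -0.05 (-0.249 to 0.128), so that the ranges overlapped. Deviations from a tissue mean cancel out over the horses, so a positive mean r within horses by itself brings a negative one between them. The mean of the pairs from different horses is therefore no separate evidence for the pairing. Replicates are separate animals.

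The gene, its reference, the division of horses and the rule for named genes were chosen with earlier results of these data known. That rule took, among genes that averaged 1 CPM or more in each tissue, the 2 highest and the 2 lowest correlations with the deviations of ENSECAG00000035318. A RefSeq table of genes of another assembly of the horse gives an Ensembl identifier for 0 genes, so names, positions and sequences were not used here.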

Additional observations from a re-analysis of the deposited data

How the results depend on the processing

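Under every scaling and test tried, the fitted tissue differences of ENSECAG00000035318 kept their direction. LvsH was no longer called without the filter on low counts (-6.35, adjusted p = 0.0588). In that fit more genes were tested, and the SE was also larger, at 2.42 compared with 2.21. Leaving out 1 library gave -6.96 to -5.63 for LvsH (adjusted p 0.0177 to 0.0551), -3.51 to -2.31 for LvsLR and 2.69 to 4.08 for HvsLR, with neither of the last called. With the replicate block for the horse, LvsLR (-2.50) and HvsLR (4.02) were called, and they stayed so when each horse was left out in turn: -6.60 to -6.33 for LvsH, -2.66 to -2.29 for LvsLR and, without horses 1 to 4, 3.94, 4.31, 3.68 and 4.04 for HvsLR (adjusted p at most 0.00152, edgeR's quasi-likelihood test). Without the block, the Wald test of DESeq2 gave -6.32 for LvsH (adjusted p = 0.000304), which was called. It gave -2.97 for LvsLR (adjusted p = 0.107) and 3.36 for HvsLR (adjusted p = 0.0665), which were not. With library totals, LvsH was only just called (-4.56, adjusted p = 0.0499, edgeR's quasi-likelihood test).

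Library totals alone gave 12142 genes called in LvsH and 11939 in LvsLR, compared with 6972 and 7787, and raised the share higher in the lung from 54.2% to 92.8% and from 61.6% to 90.4%. Over all genes, the median log2 fold change shifted under this scaling by 1.82 in LvsH, 1.55 in LvsLR and -0.25 in HvsLR. Relative to that median, the log2 fold change of the gene was -6.42 with TMM and -6.41 with totals in LvsH, -3.20 and -3.30 in LvsLR, and 3.33 and 3.20 in HvsLR. Without 1 library the genes called numbered 6847 to 7320 in LvsH, 7648 to 8079 in LvsLR and 7297 to 7674 in HvsLR.

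The smallest distance between the horses was 4.73 to 5.26 in the heart, 5.36 to 5.45 in the lung and 6.25 to 6.56 in the liver under the other scalings, another prior count and relative to the reference gene. The difference of the gene from the reference in LvsH, paired within horses, changed sign to 0.14 without replicate 3. Leaving out each horse gave -0.18 to 0.14 for LvsH, 0.17 to 0.46 for LvsLR and 0.08 to 0.64 for HvsLR. Without the pairing the exact permutation test gave p = 0.914, 0.6 and 0.6. That test takes in the distance between the horses for which the gene was chosen, which is far larger than these differences. Its p-values were therefore bound to be large, and nothing is read from them. In every case, 1 library per horse and tissue limits what can be said of a single animal.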

Other observations

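The counts of ENSECAG00000035318 and ENSECAG00000028173 together made up 1.14%, 10.2%, 1.67% and 15.2% of the count of ENSECAG00000027689 in the hearts of horses 1 to 4, 0.802%, 11.5%, 0.899% and 16.0% in the lung, and 0.824%, 12.4%, 0.925% and 13.7% in the liver. The counts of ENSECAG00000035318, ENSECAG00000028173 and ENSECAG00000027671 were added up in each library and expressed in the same way, a sum chosen after the values had been seen and not tested. In the lung the sum was 32.4%, 31.9%, 33.5% and 40.4% in horses 1 to 4, and in the liver it was 35.4%, 32.0%, 47.6% and 34.8%. In the heart it was 36.5%, 24.3%, 45.7% and 34.6%. This sum is set mostly by ENSECAG00000027671, which is far more abundant and was named for its opposite pattern, so nothing is read from the order of the horses in it. ENSECAG00000027671 alone stood at 31.6%, 20.4%, 32.6% and 24.4% of the reference in the lung, 34.5%, 19.6%, 46.7% and 21.1% in the liver, and 35.4%, 14.1%, 44.0% and 19.4% in the heart.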
